A study of Mus with 4 samples.

Results

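The expression of *Arl6ip5*, *Vapb*, *Tmem242*, *Kifc5b*, *Mpst*, *Mdfi* and *Stk32a* was examined in nephron progenitor cells (NPCs) with conditional deletion of the prorenin receptor gene. These 7 genes were selected on a large fall in *Mut* relative to *WT* on arrays 1 to 3 of this data set, so their *Mut*/*WT* ratios on these arrays are given as a description, without a test. They are 7 of 16358 genes that could be named on the array and are measured by 13 probes with 1 spot each. The cells were GFP-positive cap mesenchyme sorted from kidneys of mouse embryos at day 15.5. *Mut* embryos carried a *Six2*-driven GFP-Cre transgene and were homozygous for the floxed prorenin receptor gene (PRR flox/flox), whereas *WT* embryos carried the same transgene and both normal alleles (PRR+/+). The transgene was thus shared by all pools, and recombination was limited to cells with *Six2* promoter activity. Each channel held RNA of a pool of kidneys. Arrays 1 to 3 paired *Mut* pools 1 to 3 in Cy3 with *WT* pools 1 to 3 in Cy5. By the labels, array 4 held *WT* pool 1 in Cy5, as on array 1, and *WT* pool 2 in Cy3, which was in Cy5 on array 2. The data gave no independent check of these pool labels, and the *WT* channels of array 4 stood apart from those of arrays 1 to 3 at the genes examined. Because no dye was swapped on arrays 1 to 3, genotype and dye cannot be told apart there.

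These genes do not form a single pathway. *Arl6ip5* and *Vapb* encode membrane proteins of the endoplasmic reticulum. Arl6ip5 is a prenylated Rab acceptor family protein that restrains the glutamate transporter Slc1a1, and Vapb is a tether that joins the endoplasmic reticulum to other organelles by binding FFAT motifs in its partners. Tmem242 takes part in the assembly of the mitochondrial ATP synthase, and Mpst is a sulfurtransferase that handles sulfur from mercaptopyruvate. Kifc5b is a minus-end-directed kinesin of the spindle-associated kinesin-14 class. Mdfi (I-mfa) holds back myogenic bHLH transcription factors and interacts with the Wnt pathway, and Stk32a is a serine/threonine kinase. Nephron progenitors of the cap mesenchyme renew themselves and give rise to the epithelia of the nephron.

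The arrays were comparable in signal. The median spot signal lay between 65.5 and 82 in Cy3 and between 84 and 92 in Cy5, against a median background of 16 to 17 in Cy3 and 50 in Cy5. Of all probes, 45.1 to 51.1% were well above background in Cy3 and 54.2 to 58.4% in Cy5. All 11 nephron progenitor markers measured, *Six2* and *Cited1* among them, were well above background in the *WT* channels of arrays 1 to 3. Only 1 of 6 erythroid markers was. The targeted gene, *Atp6ap2*, had a log2 *Mut*/*WT* of -0.08, -0.19 and -0.25 on arrays 1 to 3, and array 4, with no *Mut* pool, gave -0.19. Where its probe lies relative to the floxed part is not given in the sources used here, so it does not check the labels.

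*Arl6ip5* and *Vapb*, the genes of the endoplasmic reticulum, were well above background in both channels. At the *Arl6ip5* probe (A_51_P259902), the deposited median signal was 1592, 1683 and 2010.5 in the *WT* channel and 112, 138.5 and 169 in the *Mut* channel of arrays 1 to 3. The log2 *Mut*/*WT* was -2.74, -2.50 and -2.24, with a mean of -2.49 ± 0.25 (SD, n = 3), a 5.63-fold lower signal in *Mut*. The normalized *Mut* and *WT* levels did not overlap, which follows from choosing genes by a large fall on these arrays. How many of all probes had such a gap is not given here. The *WT* levels of the 3 arrays differed little, from 10.27 to 10.28 on the log2 scale.

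*Vapb* was measured by 3 probes, which differed from each other. At A_52_P556140 the *WT* signal was 2903, 3335 and 4500 and the *Mut* signal 246, 316 and 310. Its log2 *Mut*/*WT* was -2.51, -2.29 and -2.45, with a mean of -2.42 ± 0.11 (SD, n = 3), or 5.35-fold lower. At A_51_P323443 the *WT* signal was 284.5, 264.5 and 326, and the *Mut* signal was 211, 209 and 195. That gave a log2 *Mut*/*WT* of 0.45, 0.44 and 0.36, and the mean was 0.42 ± 0.05 (SD, n = 3). At A_51_P458873 the ratios were 0.18, 0.21 and 0.06, with a mean of 0.15 ± 0.08 (SD, n = 3). With median centring in place of loess these 2 means were -0.018 and -0.23, so their sign rests on the normalization. All 3 probes carry the same transcript accession on the array, and the fall was seen at 1 of them.

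**Figure D1:**
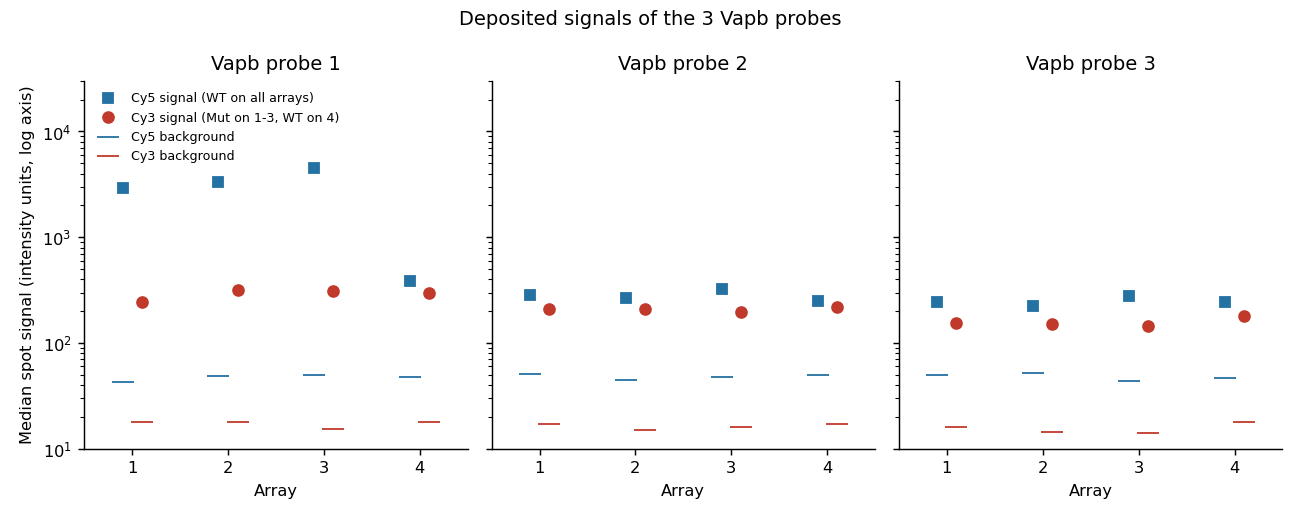
Median spot signals of the 3 *Vapb* probes (A_52_P556140, A_51_P323443 and A_51_P458873, from left to right) on a log axis for each array, with the local background as dashes. Squares show the Cy5 channel, which held *WT* on all 4 arrays, and circles the Cy3 channel, which held *Mut* on arrays 1 to 3 and *WT* on array 4. The Cy5 signal of the first probe was 2903 to 4500 on arrays 1 to 3 and 385 on array 4.

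*Tmem242* and *Kifc5b* were lower at both of their probes. For *Tmem242*, A_51_P411389 gave *WT* signals of 1389, 1440 and 1883.5 and *Mut* signals of 127, 150 and 168. Its mean log2 *Mut*/*WT* was -2.23 ± 0.13 (SD, n = 3), 4.69-fold lower. The second probe, A_52_P13703, with *WT* signals of 295, 283 and 357 and *Mut* signals of 73, 80 and 88, gave -1.06 ± 0.10 (SD, n = 3), 2.09-fold lower, and -2.13 with the deposited log ratios. The normalized *Mut* and *WT* levels did not overlap at either probe, which likewise follows from the choice of the genes.

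For *Kifc5b*, A_51_P137433 had *WT* signals of 1443, 1266.5 and 1867 and *Mut* signals of 148.5, 158 and 166. Its mean log2 *Mut*/*WT* was -2.12 ± 0.17 (SD, n = 3), 4.35-fold lower. A_52_P550734, with *WT* signals of 561, 466 and 762.5 and *Mut* signals of 97, 97 and 103.5, gave -1.52 ± 0.25 (SD, n = 3), 2.88-fold lower, and -2.33 with the deposited log ratios. *Kifc5b* has a near-identical relative, *Kifc1*, which was not among the named probes, and the probes may also capture its transcripts. The assignment to *Kifc5b* is therefore uncertain.

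*Mpst*, *Mdfi* and *Stk32a* were detected in *WT* but were not well above background in *Mut* on any of arrays 1 to 3. Their falls are therefore given as lower bounds, which hold for this processing only. A bound compares the mean *WT* level with, on each array, the higher of the *Mut* level and the lowest level of any probe well above background. At the *Mpst* probe (A_51_P200529) the *WT* signal was 472, 451 and 529.5 and the *Mut* signal 66.5, 67 and 67. This is a fall of at least 3.62-fold, with a measured log2 *Mut*/*WT* of -1.86 ± 0.13 (SD, n = 3). Here the bound equals the measured fold, since the *Mut* level was the higher on each array. The log2 ratio was -1.66 with array 4 as a dye term and -4.23 with the deposited log ratios.

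For *Mdfi*, A_52_P476775 had *WT* signals of 220.5, 248 and 337.5 and *Mut* signals of 57, 69 and 69.5, a fall of at least 2.31-fold. Its measured log2 *Mut*/*WT* was -1.21 ± 0.18 (SD, n = 3). The other probe, A_51_P368012, with *WT* signals of 183, 203.5 and 274 and *Mut* signals of 53, 67 and 65, gave a fall of at least 2.01-fold and a measured -1.01 ± 0.22 (SD, n = 3). At both *Mdfi* probes the normalized *Mut* and *WT* levels did not overlap, which again follows from the choice of the genes.

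*Stk32a* was dim in *WT* as well. At A_52_P305061 the *WT* signal was 166.5, 166 and 193.5 and the *Mut* signal 61, 65.5 and 68.5. The fall was at least 1.66-fold and the measured log2 *Mut*/*WT* was -0.73 ± 0.10 (SD, n = 3). At A_52_P305062, where *WT* signals were only 91, 99 and 120 and *Mut* signals 47, 53 and 62, the bound was 1.19-fold and the measured ratio -0.54 ± 0.06 (SD, n = 3).

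Over the 41174 probes tested, limma called 599 (1.45%) lower and 228 (0.554%) higher in *Mut* (1216 and 1488 with the deposited log ratios), where a call needed a change above 1.5-fold and an adjusted *P* below 0.05. Of the 13 probes, 10, at least 1 for each of the 7 genes, were called lower and 0 higher. This count follows from how the genes were chosen. With the deposited log ratios it was 11 lower and 1 higher, since *Vapb* A_51_P323443 (0.66) was then called higher and *Stk32a* A_52_P305062 (-3.15) lower. The 3 probes not called were the *Vapb* probes A_51_P323443 and A_51_P458873 and the *Stk32a* probe A_52_P305062. In the order of falls among the 599 probes at the offset of 50 used here, *Arl6ip5* was 2nd, *Vapb* 3rd, *Tmem242* 4th and *Kifc5b* 5th. These ranks are those of the brightest probe of each gene. The second probe of *Kifc5b* ranked 17 and that of *Tmem242* 79. *Mpst*, *Mdfi* and *Stk32a* have only bounds and therefore no rank. The order rests on the treatment of dim signals. With the deposited log ratios *Mpst* was at -4.23, the *Mdfi* probes at -3.33 and -3.58 and the leading *Stk32a* probe at -2.94, against -3.12 for *Arl6ip5* and -2.68 for *Vapb* A_52_P556140. At the offset of 50, 5 probes of the array fell over 4-fold, 4 of them of these genes, and with the deposited log ratios the counts were 354 and 11.

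Probes of a gene often differed across the array. Of 5305 named genes with 2 or more probes, 309 had a probe called lower. In 23 of them (7.44%) every probe was called lower, and in 100 (32.4%) another probe had a mean log2 ratio above 0. Of the 5 genes here with more than 1 probe, *Tmem242*, *Kifc5b* and *Mdfi* were among the former and *Vapb* was among the latter.

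**Figure D2:**
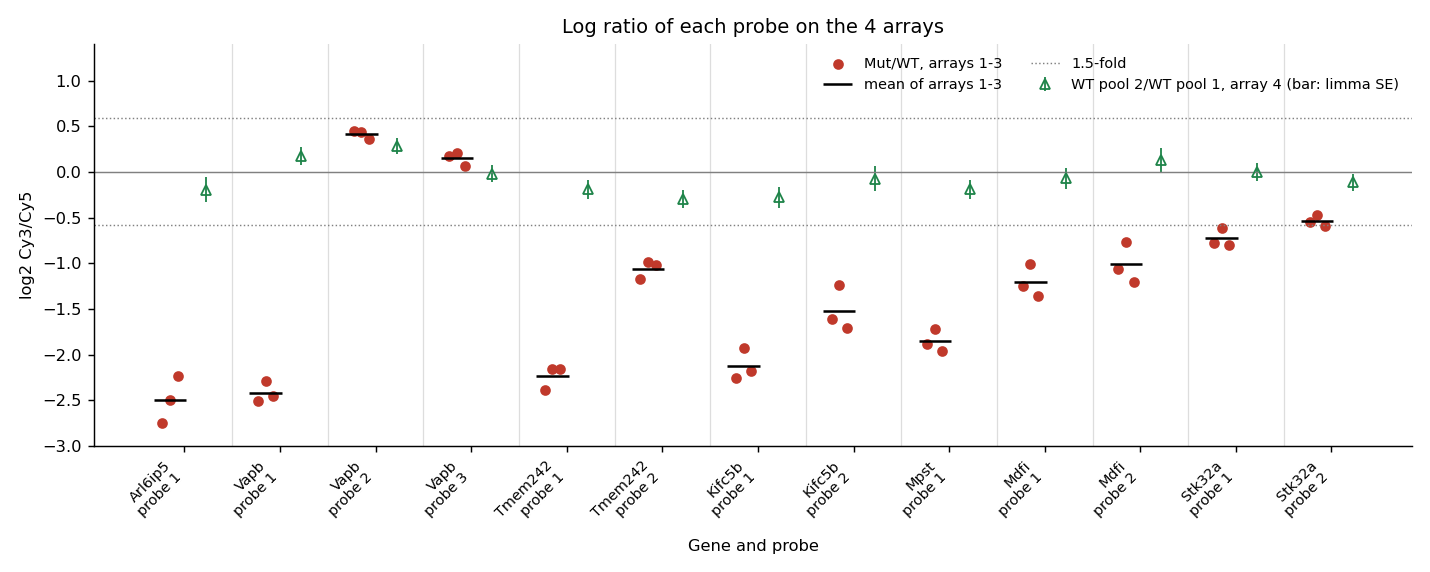
Log2 Cy3/Cy5 of the 13 probes. Filled circles are *Mut*/*WT* on arrays 1 to 3 with their mean as a line, triangles are *WT* pool 2/*WT* pool 1 on array 4 with limma's standard error, and dotted lines mark 1.5-fold. On average 10 probes lie below the lower dotted line, and all array 4 values lie between -0.30 and 0.29.

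Array 4 was not used to choose the genes. It shows how far 2 *WT* pools in different dyes differ at the same probes. None of the 13 probes was called on array 4, where limma called 7 of 41174 probes (0.017%). The log2 Cy3/Cy5 ran from -0.30 at *Tmem242* A_52_P13703 to 0.29 at *Vapb* A_51_P323443. The range depended on the processing and was -0.92 to 0.36 with the deposited log ratios, -0.80 to 0.44 with an offset of 0 and -0.68 to 0.33 with median centring, with 0 of the 13 probes called in each. These 2 probes and *Kifc5b* A_51_P137433, at -0.28, had unadjusted *P* values under 0.05, as had 6195 probes of the array. Their adjusted *P* values from limma were 0.214, 0.205 and 0.284. The lone array was assumed to vary as arrays 1 to 3 do. For *Mpst*, *Mdfi* and *Stk32a*, the Cy3 channel of array 4 was not well above background.

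At most of these probes both *WT* channels of array 4 stood apart from the *WT* channels of arrays 1 to 3. At *Vapb* A_52_P556140, *WT* pool 1 in Cy5 had a signal of 385 on array 4 against 2903 on array 1, and *WT* pool 2 had 299.5 in Cy3 on array 4. On the normalized scale the level of pool 1 was 11.10 on array 1 and 8.24 on array 4, 7.28-fold lower. The mean *Mut* level at this probe was 8.84 ± 0.22 (SD, n = 3), above both *WT* channels of array 4. At the other *Vapb* probes, the level of *WT* pool 1 was 7.87 and 7.68 (A_51_P323443) and 7.70 and 7.68 (A_51_P458873) on arrays 1 and 4.

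The same held for the other genes. At the *Arl6ip5* probe, *WT* pool 1 in Cy5 had a signal of 377 on array 4 and 1592 on array 1, and its level was 8.22 against 10.27, 4.13-fold lower. The mean *Mut* level of *Arl6ip5* was 7.78 ± 0.26 (SD, n = 3). For *Mpst*, the signal of pool 1 was 91 on array 4 and 472 on array 1, a 4.15-fold lower level.

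*Tmem242* (A_51_P411389) had Cy5 signals of 375 on array 4 and 1389 on array 1, a 3.64-fold lower level of the *WT* pool with the same label. *Kifc5b* (A_51_P137433) had 417 and 1443, 3.40-fold lower. For *Mdfi* (A_52_P476775) the signals were 78 and 220.5, 2.41-fold lower, and for *Stk32a* (A_52_P305061) they were 79 and 166.5, 1.93-fold lower. At the second *Mdfi* probe the Cy5 channel of array 4 was not well above background, and pool 1 was at least 2.36-fold lower than on array 1. Each is a single channel set against another, with no replicate and no test.

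**Figure D3:**
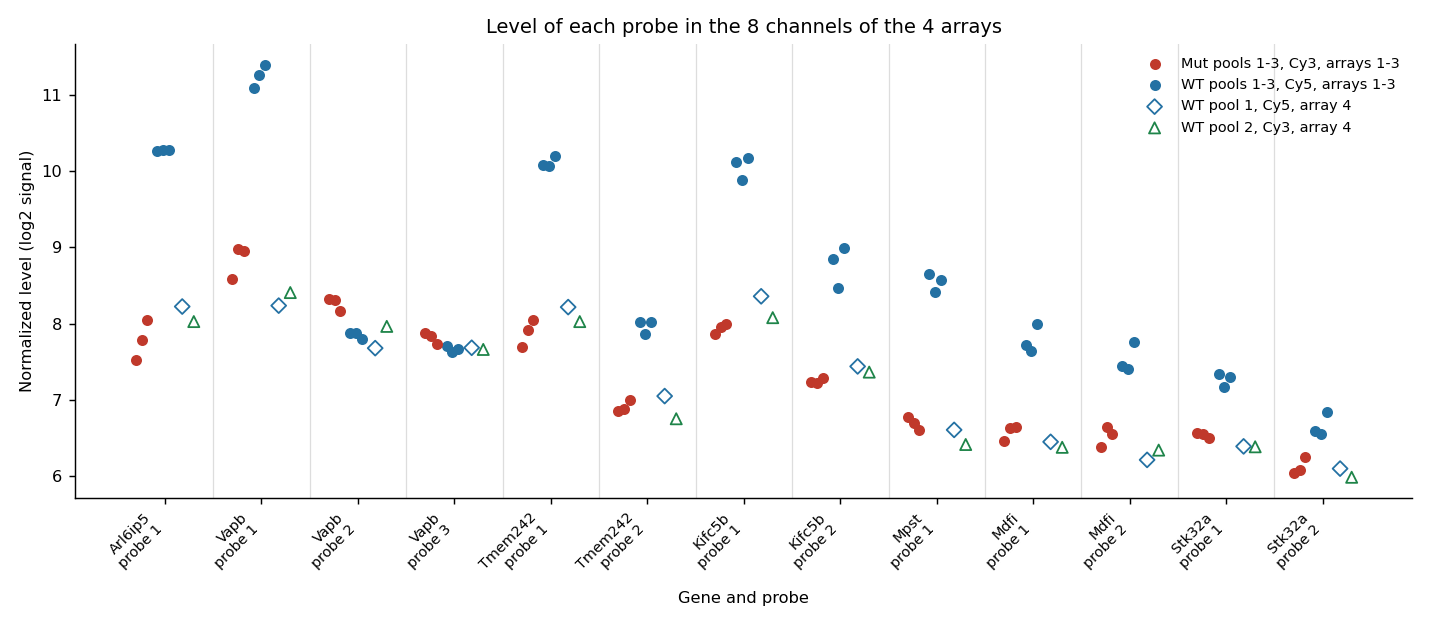
Normalized log2 level of each probe in all 8 channels, with probes in the order brightest first within a gene. Filled red and blue circles are the *Mut* and *WT* pools of arrays 1 to 3, the open diamond is *WT* pool 1 on array 4 (Cy5) and the open triangle *WT* pool 2 on array 4 (Cy3). At the 10 probes called lower, both open symbols lie below all 3 blue circles and near the red ones.

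All 10 probes called lower in *Mut* were over 1.5-fold lower in *WT* pool 1 on array 4 than in the same pool and dye on array 1. This was so for 218 of 41173 probes (0.529%) and for 108 of the 599 probes called lower (18%). The level of pool 1 on array 4 was nearer to the mean *Mut* than to the mean *WT* level of arrays 1 to 3 at all 10 probes. It was nearer at 39.3% of all probes, 27.9% of those called lower and 57% of those called higher. The median difference of *WT* pool 1, array 4 minus array 1, was -1.59 on the log2 scale for the 10 probes, -0.24 for the 599 and -0.01 for all probes. The array 1 value entered the choice of the genes, so part of this difference was chosen with them.

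A comparison within 1 dye used *WT* pool 2 in Cy3 on array 4 and the *Mut* pools in Cy3 on arrays 1 to 3. Of the 10 probes, 6 were well above background in Cy3 on all 4 arrays. At 0 of these 6 was the mean *Mut* level over 1.5-fold below that *WT* channel, against 97 of 17952 probes equally above background (0.54%) and 140 of 41166 probes in all (0.34%). The mean *Mut* level was below it at 4 of the 6 probes. *Arl6ip5* was lower by 0.24 on the log2 scale (1.18-fold), *Tmem242* A_51_P411389 1.10-fold, *Kifc5b* A_51_P137433 1.10-fold and *Kifc5b* A_52_P550734 1.08-fold lower. The *Mut* mean was higher at *Vapb* A_52_P556140, by 0.43, and at *Tmem242* A_52_P13703, by 0.16. At the other 4 probes, of *Mpst*, *Mdfi* and *Stk32a*, neither side was well above background, so they could not show a fall here. Against *WT* pool 1 in Cy5 on array 4, a comparison across dyes, the mean *Mut* level was lower at 5 of the 6 probes, by 0.14 to 0.44 on the log2 scale, and at 0 by over 1.5-fold. At *Vapb* A_52_P556140 it was higher by 0.60. At the 6 probes, falls over 1.5-fold were thus seen against the *WT* channels of arrays 1 to 3 and not against those of array 4, and which *WT* value holds for these cells cannot be told from these 4 arrays.

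**Figure D4:**
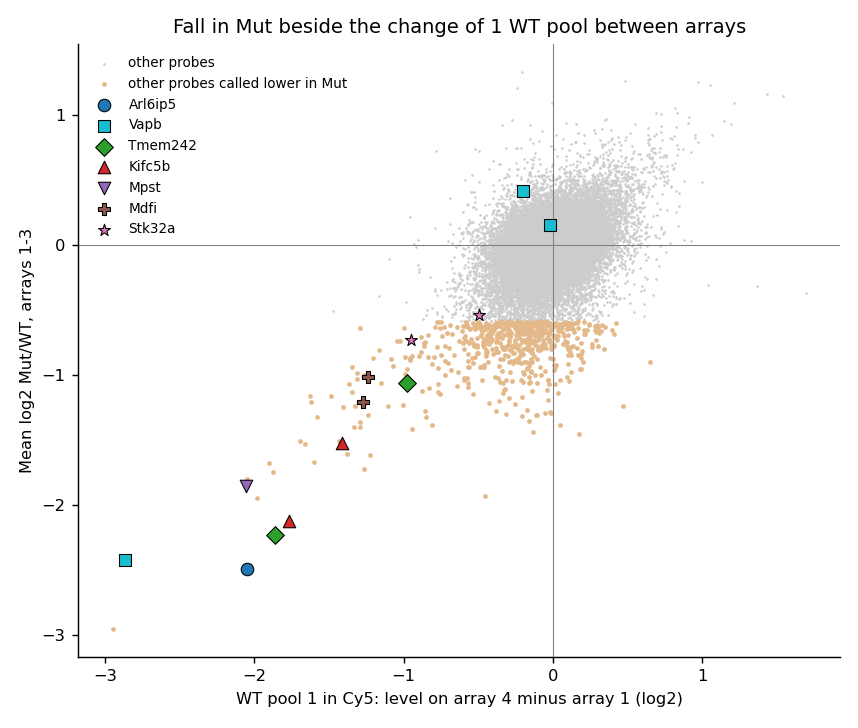
Mean log2 *Mut*/*WT* of arrays 1 to 3 against the log2 change of *WT* pool 1 in Cy5 from array 1 to array 4, for all probes. Both axes use the array 1 Cy5 value. The probes called lower spread along the vertical axis near 0 and along a diagonal, and the 10 probes called lower of the 7 genes lie on the diagonal, between -0.95 and -2.86 on the horizontal axis.

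Array 4 also stood at the *Mut* level for some markers. Of 6 markers of differentiating nephrons, 2, *Lhx1* and *Ccnd1*, were called higher in *Mut* (33.3%, against 0.44% of all named genes). The summed linear level of the 6 was 1944 to 2062 in the *WT* and 2763 to 2930 in the *Mut* channels of arrays 1 to 3, but 2965 and 2959 in the *WT* channels of array 4. *Ccnd1*, the brightest of the 6 (mean log2 level 9.60 in *WT* and 10.28 in *Mut*), weighs most in this sum, and *Wnt4* was at 0.02. Of 7 stromal markers, 3 were called higher (42.9%), while *Foxd1* was at -0.30 and not called, with sums of 5033 to 5277 in *WT*, 6127 to 7502 in *Mut*, and 5262 and 6080 on array 4. The sum of the 11 nephron progenitor markers was 30082 to 31319 in *WT*, 27102 to 28530 in *Mut*, and 29439 and 27277 on array 4, with 0 called. *Crym* carried this difference, since the sum of the other 10 was 14231 to 14562 in *WT* and 14237 to 14690 in *Mut*. On array 4 that sum was 13949 and 14318. Markers of other cell types were present as well. In *WT*, 6 of 8 ureteric bud, 3 of 6 endothelial and 2 of 3 macrophage markers were well above background on arrays 1 to 3, with 0 called. Their sums were 2655 to 2720 in *WT* and 2511 to 2611 in *Mut* for ureteric bud, 721 to 740 and 728 to 737 for endothelium, and 384 to 398 and 342 to 369 for macrophages. The *WT* channels of array 4 gave 2350 and 2491 for ureteric bud, 647 and 711 for endothelium, and 373 and 328 for macrophages. *Ret* of the ureteric bud, *Pecam1* and *Tek* of endothelium, and *Hba-x*, *Hbb-bh1* and *Epb42* of erythroid cells were among the markers not well above background in *WT*. The sum of the 6 erythroid markers was 428 to 489 in *WT*, 512 to 545 in *Mut*, and 547 and 537 on array 4, with 0 called. The part of cell composition in the values of the 7 genes was not tested, and fewer cells of a type cannot be told apart from less RNA per cell.

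Neighbouring spots did not share the falls. Spots within 6 rows and 3 columns of each of the 13 probes, 48 to 90 spots each, had median log2 ratios between -0.04 and 0.04, on arrays 1 to 3 and on array 4 alike. None of the spots of the 7 genes carried an outlier flag and none was saturated.

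Among genes that act with these proteins, the share called lay near that of all genes. Lists made for each of the 7 genes held 103 genes, of which 93 were measured, each at its brightest probe. In *Mut*, 0 were called higher and 1 lower (1.08%), against 0.44% higher and 1.58% lower of all 16358 named genes. Without the fold limit, 35 of the 93 had an adjusted *P* under 0.05 (33% of all named genes) and 46 an unadjusted one (44% of all named genes). With the fold limit the unadjusted count was 1 (2.03% of all named genes), and it was also 1 by the methods' test on each probe alone. Their median log2 *Mut*/*WT* was -0.03, and that of all named genes was -0.003.

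Of the 7 genes listed with *Arl6ip5*, 0 were called. Its family member *Rabac1* had a log2 *Mut*/*WT* of -0.11, *Arl6ip4* 0.02 and *Arl6ip1*, another shaping protein of the endoplasmic reticulum, -0.30. The Arl6ip5 target *Slc1a1* was near background, at a *WT* level of 6.36. Of 17 *Vapb* relatives and contact-site partners, 0 were called. *Vapa*, the closest relative of *Vapb* and bright at a *WT* level of 12.10, had a log2 *Mut*/*WT* of 0.06, *Stard3*, a cholesterol transporter, -0.23, and *Zfyve27* (protrudin) -0.09.

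Of 20 ATP synthase genes listed with *Tmem242*, 0 were called, and values lay between -0.29 (*Atp5c1*) and 0.29 (*Atp5h*). *Atp5b*, the catalytic beta subunit, was at -0.09 at its brightest probe, while 2 of its other probes, A_51_P207636 and A_52_P553841, were called lower at -1.38 and -0.90 (limma, adjusted *P* = 3.61e-05 and 0.000129). These probes, too, differed within a gene. *Tmem70*, another assembly factor, was at 0.12 and *Atpif1*, the inhibitor of the enzyme, at 0.03.

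Of 12 kinesins, 0 were called, with *Kif22* at -0.04, *Kif20a* at 0.33 and *Kif4* at 0.39. Of 16 genes of sulfur metabolism, 0 were called. *Tst*, the rhodanese related to Mpst, was at 0.38, *Got2*, which supplies mercaptopyruvate from cysteine, at 0.21 and the thioredoxin *Txn1*, which takes sulfur from Mpst, at -0.01. The values ran from -0.48 at *Tstd2* to 0.38 at *Tst*, with *Cdo1* and *Txnrd2* at -0.30 each.

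Of 16 relatives and partners of Mdfi, *Axin1*, a scaffold of the beta-catenin destruction complex, was called lower. Its log2 *Mut*/*WT* was -0.96, -0.71 and -0.62, with a mean of -0.76 ± 0.07 (SE, n = 3, limma, adjusted *P* = 1.41e-05), and array 4 gave -0.28. With array 4 as a dye term it was -0.48, below the fold limit, with limma's adjusted *P* at 0.122, and it was not called with the deposited log ratios, an offset of 0 or median centring either (adjusted *P* = 0.0557, 0.111 and 0.0815). The *WT* level of *Axin1* was 8.08 on arrays 1 to 3, 8.0 in pool 1, and 7.71 in pool 2 on array 4, against a mean *Mut* level of 7.32. *Ctnnb1* (beta-catenin) was at -0.32 at its brightest probe and was called lower at A_51_P272046, at -0.70 (limma, adjusted *P* = 8.23e-05). The myogenic factors *Myod1*, *Myf5*, *Myf6* and *Myog*, which I-mfa binds, had *WT* levels of 6.11 to 6.21, near background. Of 5 kinases listed with *Stk32a*, 0 were called, with *Stk38* at -0.12, *Lats2* at 0.23 and *Stk38l* at -0.08.

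**Figure D5:**
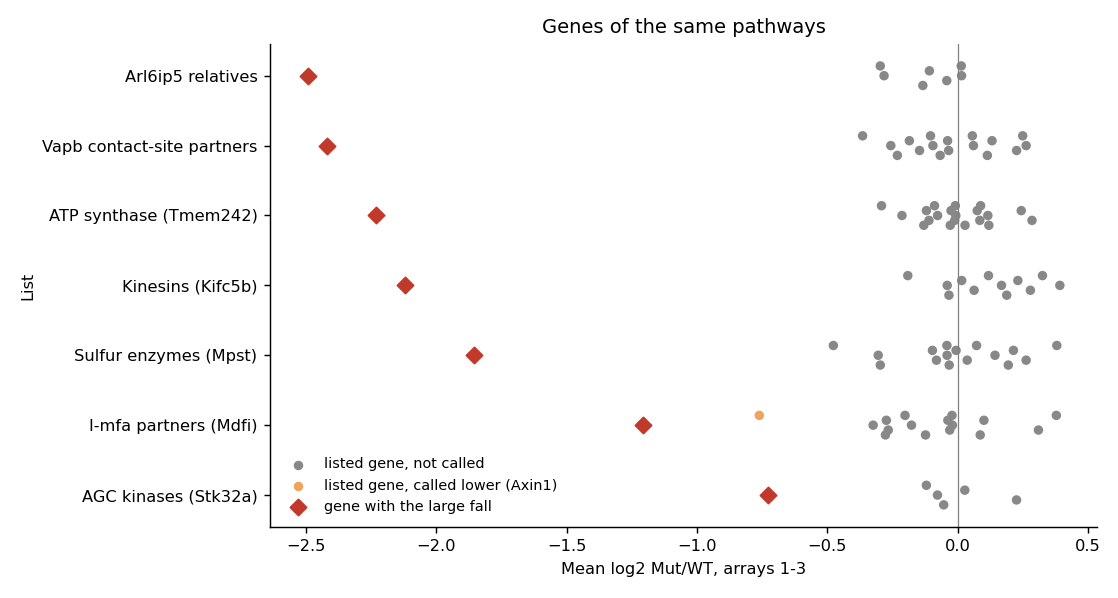
Mean log2 *Mut*/*WT* of arrays 1 to 3 for the 93 measured genes of the 7 lists, each at its brightest probe, beside the gene of the large fall that each list was made for (diamond). The orange point is *Axin1*, at -0.76, and the other 92 points lie between -0.48 and 0.39.

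Centred profiles over the 8 channels were compared by Euclidean distance with the mean profile of the 7 leading probes. Na,K-ATPase subunits were left out of this search. The nearest 5 of the other named genes were *Chmp4b* (0.235), *H2bu2* (0.241), *Hoxd4* (0.352), *Rab5c* (0.356) and *Hoxb8* (0.441). The leading probes themselves lay at distances of 0.348 (*Mpst*) to 1.51 (*Stk32a*). *Chmp4b* encodes a subunit of the ESCRT-III membrane scission complex. Its nearest probe, A_52_P622680, had a log2 *Mut*/*WT* of -1.81, -1.66 and -1.76, a mean *WT* level of 10.21 on arrays 1 to 3, and levels of 8.31 and 8.42 in the *WT* channels of array 4. Its second probe, A_52_P288873, was at -0.47 and was not called. *Rab5c*, an early endosomal GTPase, was at -1.91, -1.77 and -1.70, with a *WT* level of 10.56 and array 4 levels of 8.55 and 8.40. *Hoxd4*, a homeobox transcription factor, had a mean of -1.67 and *H2bu2*, a histone H2B gene, of -1.95. *Hoxb8*, another homeobox gene, was not well above background in *Mut*, and no fold is given for it. Array 4 was part of the profile by which these 5 genes were chosen, so that its *WT* channels lay near or below the *Mut* level at their nearest probes follows from the choice.

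Processing bore on the size of the falls and on the calls. The 10 probes were also called lower without any 1 of arrays 1 to 3, with outlier spots kept, with array 4 as an estimate of the dye effect and with the channels fitted as unpaired samples. These fits use the arrays on which the genes were chosen and add no support. With an offset of 0, and with median centring in place of loess, limma called 0 probes of the whole array, and so 0 of these. Without adjustment of *P*, 3524 and 6027 probes of the array passed these 2 settings. The log2 *Mut*/*WT* of the 10 probes stayed below 0, all 10 passed without adjustment, and the folds were larger, as at *Arl6ip5* (-2.90 and -3.04) and *Mpst* (-2.99 and -2.22). These values, too, come from the arrays on which the genes were chosen, so that the probes passed adds no support. Subtracting the array 4 ratio left -2.59 at *Vapb* A_52_P556140 and -2.30 at *Arl6ip5*. This uses the ratio of array 4 and not its low *WT* levels.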

How the data were processed

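Each of 4 dual-colour Agilent arrays of 1 slide compared pools of FACS-isolated NPCs. The deposited intensity values (median signal and background of both channels) came from Agilent Feature Extraction 10.7.3.1, without normalization. The authors also deposited log10 ratios of Cy5/Cy3, already background-subtracted and dye-normalized by that program. The paper's methods name GeneSpring GX, whose values were not used here.

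Background was corrected with normexp (offset 50), each array's ratios were loess-normalized, control and outlier spots were left out, and ratios were turned to Cy3/Cy5. Levels are log2 signals after Aquantile normalization between arrays. Ratios of 41174 probes were fitted with limma 3.58.1 in R 4.3.3 and *P* values adjusted by Benjamini-Hochberg. The fit was tested on simulated data. On arrays 1 to 3, *Mut* and *WT* deviated from their means together (Pearson r over probes 0.387, 0.428 and 0.318), so arrays were kept as pairs. Precision is limited by having few arrays. *WT* embryos were littermates of *Mut* embryos per the paper's methods, how litters were divided among pools is not given in the sources used here, and *P* values measure the spread between pools.

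Symbols came from a RefSeq table (GRCm38.p6), used for names, for 22951 probes (55.7%). All probes of the 7 genes were named, as were related genes that were called or among the 3 brightest of a list, a few more chosen after their values were seen, and the 5 nearest profiles. The genes and lists were chosen with earlier results of these data known. Probe and transcript sequences were not used here. Alternatives are given in the closing section.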

Additional observations from a re-analysis of the deposited data

How the results depend on the processing

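The total of 827 called probes stayed within 1.5 times under outlier spots kept, unpaired channels and the filter on dim probes, and was 606 to 1206 without 1 array. Of these, the probes called lower, 599 in all, numbered 390 without array 1 and 916 without array 3. It was 2704 with the deposited log ratios (1488 higher and 1216 lower, against 228 and 599), 322 with array 4 as a dye term, and 0 with an offset of 0, with median centring and by the methods' *t*-test after Benjamini-Hochberg adjustment, where 693 passed without adjustment. On array 4 the 7 calls became 518 with the deposited log ratios, 3 with the filter on dim probes, and 0 with an offset of 0 or median centring. The count of related genes called was 1, also without each array, and 0 with an offset of 0, median centring and the dye term and 2 where a gene's probes were summarized by their median. The cause of these shifts was not tested.

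For the 10 probes called lower, 94 of 95 alternative values of log2 *Mut*/*WT* stayed below 0. The exception was *Vapb*, whose median over its 3 probes was 0.15 in place of -2.42. All 95 values use the arrays on which the genes were chosen, so their sign adds no support. The *Vapb* probes A_51_P323443 and A_51_P458873, at 0.42 and 0.15, were at -0.018 and -0.23 with median centring and at 0.13 and 0.17 with the dye term. On array 4, signs turned at *Vapb* A_51_P458873 (0.11) and *Mdfi* A_51_P368012 (-0.39) with the deposited log ratios, and with median centring at *Vapb* A_52_P556140 (-0.24) and A_51_P323443 (-0.047), *Mdfi* A_52_P476775 (0.063) and *Stk32a* A_52_P305061 (0.14) and A_52_P305062 (0.041). None of these was called. The median level of *WT* pool 1 on array 4 minus array 1 over the 7 leading probes was -1.86, and -1.67 without normalization between arrays, -2.54 with processed signals, -2.21 with an offset of 0 and -1.82 with quantile normalization. Under each of these 4, all 10 probes were again over 1.5-fold lower on array 4, and 0 of the 6 probes above background in Cy3 were over 1.5-fold below *WT* pool 2 in *Mut*. The fit on log ratios pairs the pools of an array, and the unpaired fit without a replicate block gave 824 calls.

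Low signal limits *Mpst*, *Mdfi* and *Stk32a*, whose *Mut* channel was not well above background. A single array with *WT* in both channels limits every comparison with array 4.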
